A study of Mus musculus with 2 samples.

Results

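The neuronal activity genes Egr1, Egr3, Arc, Npas4, Btg2, Ier2 and Dusp1 were examined in single nuclei of the mouse thalamus after cortical injury. They are 7 of the 32285 genes counted, and were chosen by name with the difference between these libraries already known. The difference is therefore described here and not tested. The study compared a sham operation with cortical ablation injury (CAI), in which sensory and motor cortex is removed by surgery. Each group was 1 library, named here the sham and the injury library. Each library was a pool of nuclei from 4 female C57BL/6J mice aged 3 months, taken from the thalamus of the operated side on day 21 after surgery, and the nuclei were stained and sorted before capture in droplets. The mice of a pool cannot be told apart, so no difference had a replicate check. Intervals are at 95% and cover counting error only, not the spread between mice.

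Immediate early genes are transcribed within minutes of synaptic input, without new protein synthesis. Calcium entry and kinase signalling act on factors already bound at their promoters, such as CREB at the cAMP response element (CRE) and the serum response factor at the CArG box. Their products either switch on later genes or act at synapses, and levels of these transcripts are widely used as a record of recent neuronal activity. Egr1, Egr3 and Npas4 encode transcription factors, and Npas4 is activated mainly by calcium entry in neurons. Arc encodes a protein that acts in the removal of AMPA receptors from synapses. Btg2 encodes an antiproliferative co-regulator, Ier2 a nuclear protein, and Dusp1 a phosphatase that switches off MAP kinases.

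A CRE is the element through which activity reaches many of these genes. Egr1, Egr3, Arc and Ier2 had no entry in the promoter sequences used here and were not searched. The promoter sequences of Npas4, Btg2 and Dusp1 are shown. They are RefSeq sequences on GRCm38.p6, all on the minus strand, printed 5′ to 3′. Capitals mark the full CRE (TGACGTCA) or its core (TGACG, or CGTCA on the other strand). The Npas4 stretch, chr19:4990129-4990157, lay 186 to 158 bases before the RefSeq start site. The GENCODE annotation used for gene positions starts Npas4 further upstream, so this stretch, and all 250 bases searched for Npas4, lie inside its annotated UTR. The Btg2 stretch, chr1:134079156-134079405, held the 250 bases before the RefSeq start. The Dusp1 stretch, chr17:26508520-26508722, lay 250 to 48 bases before the RefSeq start. It lies inside the longer Dusp1 locus that GENCODE gives, and the 47 bases nearest the start, annotated there as UTR, are not printed.
Npas4: cgttcgaCGTCAcgggaTGACGtcggaag
Btg2: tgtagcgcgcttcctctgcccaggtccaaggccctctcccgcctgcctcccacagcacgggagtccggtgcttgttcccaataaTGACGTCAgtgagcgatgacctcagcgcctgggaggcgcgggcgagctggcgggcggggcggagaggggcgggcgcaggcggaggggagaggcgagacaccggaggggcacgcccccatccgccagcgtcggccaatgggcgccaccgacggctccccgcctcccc
Dusp1: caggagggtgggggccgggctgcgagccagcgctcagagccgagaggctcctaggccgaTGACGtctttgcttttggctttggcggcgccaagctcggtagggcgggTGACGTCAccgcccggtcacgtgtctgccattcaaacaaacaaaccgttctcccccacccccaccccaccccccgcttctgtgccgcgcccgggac

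Both strands of the 250 bases before each RefSeq start site were searched. A full CRE was found in Btg2 and Dusp1 and in 1.55% of all 32851 promoters of this length. The core TGACG, which every full CRE also holds, was found in all 3 genes and in 17.8% of all promoters. The EGR site GCGNGGGCG was found in Btg2 and in 4.70% of all promoters, and the CArG box in none of the 3 genes and in 1.47% of all promoters. These matches describe letters in a window and are no evidence of binding.

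After the filter on nuclei, 16373 sham and 21777 injury nuclei were kept, and 101 barcodes occurred in both libraries, or 0.616% of the sham and 0.463% of the injury barcodes. Neurons were gated on transmitter markers, with oligodendrocyte markers under 0.2% of UMIs. Nuclei with at least 2 UMIs (unique molecular identifiers, each counting 1 captured transcript) of Slc17a6 and Slc17a7 were called glutamatergic, and those with at least 2 UMIs of Gad1 and Gad2 GABAergic. The glutamatergic gate held 5520 sham nuclei (median 10790 UMIs) and 5950 injury nuclei (median 11420 UMIs). The GABAergic gate held 1576 and 2751 nuclei with medians of 7408 and 8002 UMIs. Summed neuronal markers were at 3970 and 3720 CPM (UMIs of the gene scaled to 1000000 UMIs of the class) in glutamatergic nuclei and at 3130 and 3280 CPM in GABAergic nuclei. Summed oligodendrocyte markers moved with the group, from 27.2 to 53.8 CPM in glutamatergic and from 43.1 to 69.9 CPM in GABAergic nuclei. Their part in the results was not tested. In oligodendrocytes themselves these markers were at 7990 and 7400 CPM. Oligodendrocytes were gated at 0.2% or more of UMIs in these markers. Astrocytes were gated at 0.2% or more in their own, with oligodendrocyte markers under 0.2%. Neither gate took nuclei with a UMI of Slc17a6, Slc17a7, Gad1 or Gad2. Of all nuclei kept, 49.5% of sham and 47.5% of injury nuclei passed no gate and were not used.

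By CPM of the class as gated, Egr1, Npas4, Btg2 and Dusp1 were lower in the injury than in the sham library in both neuron classes. Egr3 and Ier2 were not separable from equal levels in either, and Arc was higher in glutamatergic neurons. In glutamatergic neurons, 2 of the 7 genes, Egr1 and Npas4, were lower by at least 1.5-fold and 1, Arc, was higher. Among all 18231 genes with at least 50 UMIs over both libraries, 2.31% were lower and 4.78% higher by that fold. In GABAergic neurons 6 of the 7 genes had enough UMIs, Egr3 not being among them. Of the 7 genes, 3, Egr1, Npas4 and Btg2, were lower by at least 1.5-fold and 0 were higher, against 3.07% and 5.53% of 15461 genes. The counting interval of the ratio lay below 0 for 4 of the 7 genes in each class, where the shares over all genes were 23.8% in glutamatergic and 18.7% in GABAergic neurons. These shares are given as background and support nothing here, since the genes were chosen on this contrast. At 2-fold, Egr1 was lower and Arc higher in glutamatergic neurons, against 0.241% and 1.64% of genes, and Egr1 was lower in GABAergic neurons, against 0.388% lower and 2.06% higher. The calls depended on the nuclei used. In glutamatergic neurons Egr1 was at -0.82 without called doublets and at -0.57, short of 1.5-fold, with neuron types weighted to their sham shares. Arc was at 0.95 there without nuclei lacking Slc17a6. In GABAergic neurons Npas4 was at -0.54, short of 1.5-fold, with the gate at 1 UMI. The median log2 ratio of the 7 genes was -0.40 in glutamatergic and -0.54 in GABAergic neurons, and that of all genes tested -0.005 and -0.017.

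**Figure D1:**
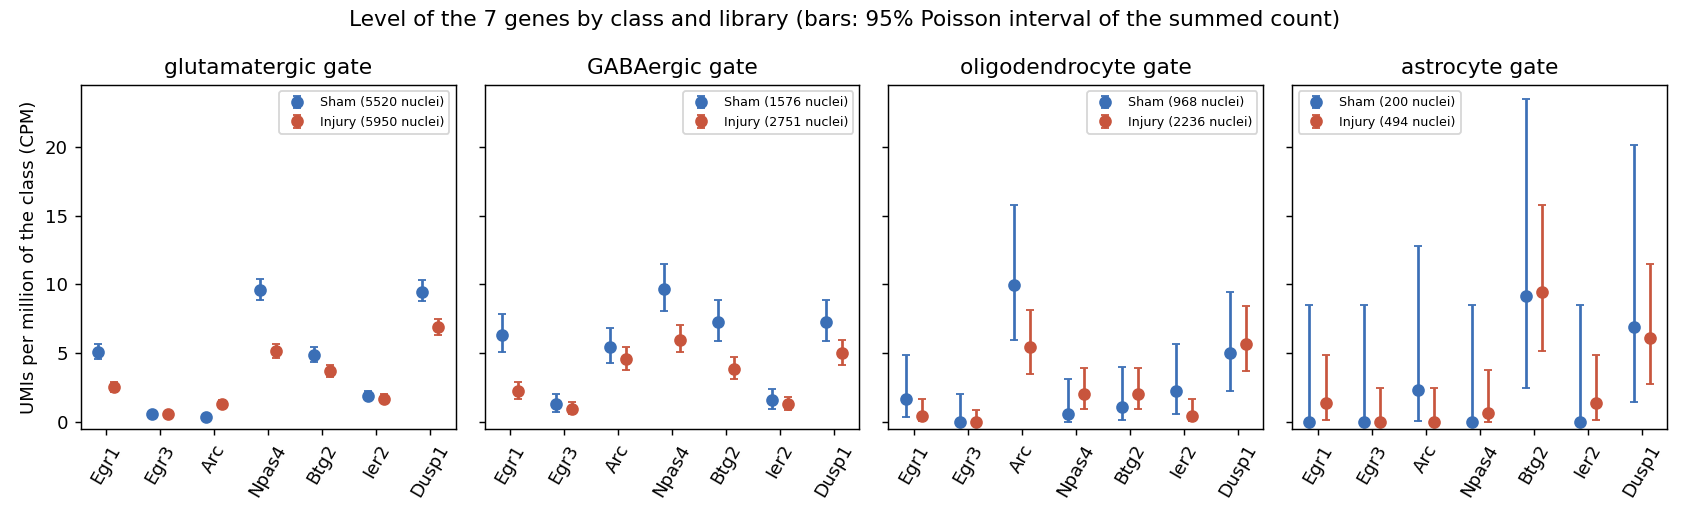
Level of each gene in CPM (vertical axis) in 4 classes of nuclei, in the sham (blue) and injury (red) library; points are the summed UMIs scaled to the class total and bars their 95% Poisson interval. Npas4 in glutamatergic neurons was at 9.62 CPM in the sham and 5.13 CPM in the injury library, while Arc in oligodendrocytes was at 9.99 and 5.47 CPM, above its level in glutamatergic neurons in both libraries.

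Npas4 (chromosome 19, 4984355 to 4990316, minus strand) was counted 637 times in the glutamatergic neurons of the sham library, at 9.62 CPM (8.89 to 10.4). The injury library gave 394 UMIs and 5.13 CPM (4.64 to 5.67). The log2 ratio of injury over sham was -0.91 (-1.09 to -0.72). The share of nuclei with an Npas4 UMI was 9.73% for sham and 6.07% for injury nuclei. With nuclei thinned to 4000 UMIs, which left out 177 sham and 176 injury nuclei of lower depth, the shares were 3.84% and 1.99%, so the gap was there at equal depth. In GABAergic neurons Npas4 was at 9.64 CPM from 129 UMIs and at 5.99 CPM from 151 UMIs, with a log2 ratio of -0.69 (-1.03 to -0.34). The sham levels of both classes were not apart, with a log2 ratio of GABAergic over glutamatergic neurons of 0.00 (-0.28 to 0.28). Npas4 was rare outside neurons in the sham library, where 968 oligodendrocytes gave 1 UMI. Their gate took no nucleus with a UMI of the transmitter markers, which also leaves out nuclei that carried such neuronal RNA. At 1500 UMIs per nucleus, with 431 sham and 918 injury oligodendrocytes of lower depth left out, 0 of 537 sham and 0.303% of 1318 injury oligodendrocytes had an Npas4 UMI, against 1.47% and 0.858% of glutamatergic nuclei.

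Egr1 (chromosome 18, 34859823 to 34864984, plus strand) was lower in the injury library in both classes. In glutamatergic neurons 337 sham UMIs gave 5.09 CPM (4.56 to 5.66). The injury library had 195 UMIs and 2.54 CPM (2.20 to 2.92), with a ratio on the log2 scale of -1.0 (-1.26 to -0.74). The share of nuclei with a UMI was 4.86% and 2.99%, or 1.87% and 0.901% after thinning to 4000 UMIs. In GABAergic neurons Egr1 was at 6.35 CPM from 85 UMIs and at 2.22 CPM from 56 UMIs, a log2 ratio of -1.52 (-2.03 to -1.01). Strongly positive nuclei were also fewer. In the sham library 48 glutamatergic nuclei had 2 or more Egr1 UMIs and the highest had 6, while in the injury library 15 had 2 or more and the highest had 3. Without nuclei of 3 or more UMIs of the gene, its ratio stayed within its counting interval.

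Egr3 (chromosome 14, 70077203 to 70082614, plus strand), a sister factor of Egr1, was scarce. It gave 39 and 43 UMIs in glutamatergic neurons, or 0.589 and 0.560 CPM, with a log2 ratio of -0.07 (-0.73 to 0.59). In GABAergic neurons it gave 17 and 24 UMIs, or 1.27 and 0.952 CPM, with a log2 ratio of -0.42 (-1.37 to 0.57). Neither ratio was apart from 0 for the class as gated, and glutamatergic nuclei with and without Slc17a6, given below, had different values. Of the 24 injury GABAergic UMIs, 19 lay in Prdm16/Ano2/Cpa6 nuclei, a gate with 0 sham nuclei that is also given below. Oligodendrocytes and astrocytes had 0 UMIs of Egr3 in both libraries.

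Dusp1 and Btg2 were also lower in the injury library. Dusp1 (chromosome 17, 26505590 to 26562128, minus strand) gave 628 and 527 UMIs in glutamatergic neurons, or 9.48 and 6.87 CPM, a log2 ratio of -0.47 (-0.64 to -0.30). In GABAergic neurons it was at 7.25 and 5.0 CPM, a log2 ratio of -0.54 (-0.93 to -0.14). The annotated Dusp1 locus overlaps 4 other genes, among them Ergic1 on the other strand, and the sources used here do not say whether counting used strand, so its counts are uncertain. Dusp1 UMIs were also found in glia, with 9 and 25 UMIs or 4.99 and 5.70 CPM in oligodendrocytes and 3 and 9 UMIs or 6.89 and 6.07 CPM in astrocytes. How much of this was free RNA was not tested.

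Btg2 (chromosome 1, 134075170 to 134079120, minus strand) gave 323 and 283 UMIs in glutamatergic neurons, or 4.88 and 3.69 CPM, a log2 ratio of -0.40 (-0.64 to -0.17). In GABAergic neurons 97 UMIs in each library gave 7.25 and 3.85 CPM, with a ratio of -0.91 on the log2 scale (-1.33 to -0.49). The size in glutamatergic neurons depended on the measure. The shares of nuclei with a UMI were 4.87% and 4.47%, a log2 ratio of -0.12, outside the interval of the ratio of levels. Astrocytes held Btg2 at 9.19 CPM from 4 UMIs and at 9.44 CPM from 14 UMIs. Its log2 ratio of astrocytes over glutamatergic neurons was 0.91 (-0.97 to 2.28) for sham and 1.36 (0.47 to 2.13) for injury nuclei, so it was apart in the injury library only. Ier2 (chromosome 8, 84661331 to 84662852, minus strand) gave 127 and 129 UMIs in glutamatergic neurons, or 1.92 and 1.68 CPM, a log2 ratio of -0.19 (-0.55 to 0.17). In GABAergic neurons it gave 21 and 32 UMIs, or 1.57 and 1.27 CPM, a log2 ratio of -0.31 (-1.14 to 0.56).

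Arc (chromosome 15, 74669083 to 74672570, minus strand) differed from the other genes in where it was found. In the sham library it was at 0.393 CPM in glutamatergic neurons from 26 UMIs and at 5.46 CPM in GABAergic neurons from 73 UMIs, a log2 ratio of GABAergic over glutamatergic neurons of 3.8 (3.13 to 4.50). In the injury library the levels were 1.29 CPM from 99 UMIs and 4.56 CPM from 115 UMIs, and this log2 ratio was 1.82 (1.42 to 2.23). Arc was the only one of the 7 genes whose GABAergic level was above the glutamatergic one beyond counting error in both libraries. The log2 ratio of injury over sham was 1.72 (1.08 to 2.40) in glutamatergic and -0.26 (-0.69 to 0.19) in GABAergic neurons. Oligodendrocytes held Arc at 9.99 CPM from 18 UMIs and at 5.47 CPM from 24 UMIs. At 1500 UMIs per nucleus 0.745% of sham and 0.531% of injury oligodendrocytes had an Arc UMI, against 0.109% and 0.235% of glutamatergic nuclei. The sham intervals overlapped (0.203 to 1.90 and 0.0399 to 0.237), as did the injury intervals (0.214 to 1.09 and 0.129 to 0.395). Of 139 sham and 396 injury astrocytes 0 had an Arc UMI at this depth. How much of these shares was free RNA was not tested.

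A large part of the Arc UMIs of injury glutamatergic neurons lay in nuclei without Slc17a6. The vesicular transporter Slc17a6 marks thalamic relay neurons, and 202 sham and 468 injury nuclei of the glutamatergic gate had no Slc17a6 UMI and passed on Slc17a7. These nuclei gave 1 sham and 45 injury Arc UMIs, so that 468 of the 5950 injury nuclei held 45 of the 99 Arc UMIs. In them Arc was at 9.47 CPM (6.91 to 12.7) and Egr3 at 3.79 CPM (2.24 to 5.99), with 0 Egr3 UMIs in the sham nuclei. Other genes were lower in these injury nuclei, Ier2 with a log2 ratio of -2.55 (-4.42 to -0.90) and Dusp1 with -1.31 (-2.43 to -0.20). The ratios of Egr1, 0.71 (-0.60 to 2.28), Npas4, 0.22 (-0.84 to 1.42), and Btg2, 0.13 (-0.95 to 1.33), were not apart from 0. Neurod6, a factor of forebrain pyramidal neurons, was at 36 CPM in these injury nuclei and had 0 UMIs in those of the sham library. The cortex marker Neurod2 went the same way, at 1.67 CPM in the sham and 34.9 CPM in the injury nuclei. Prox1, used as a dentate marker, was at 100 and 64.4 CPM. It was at 137 sham and 120 injury CPM in nuclei with Slc17a6, so it did not set dentate neurons apart here. Tcf7l2, a factor of thalamic neurons, was at 300 CPM against 654 CPM in the sham nuclei. In nuclei with Slc17a6, Arc was at 0.388 and 0.750 CPM, a log2 ratio of 0.95 (0.24 to 1.70), and Egr3 at 0.605 and 0.347 CPM, a log2 ratio of -0.80 (-1.59 to -0.04). The values of Egr1, -1.13 (-1.41 to -0.86), and Npas4, -0.95 (-1.14 to -0.76), in these nuclei were close to those of the whole class. Whether the Slc17a6-free nuclei came from tissue beside the thalamus was not tested.

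**Figure D2:**
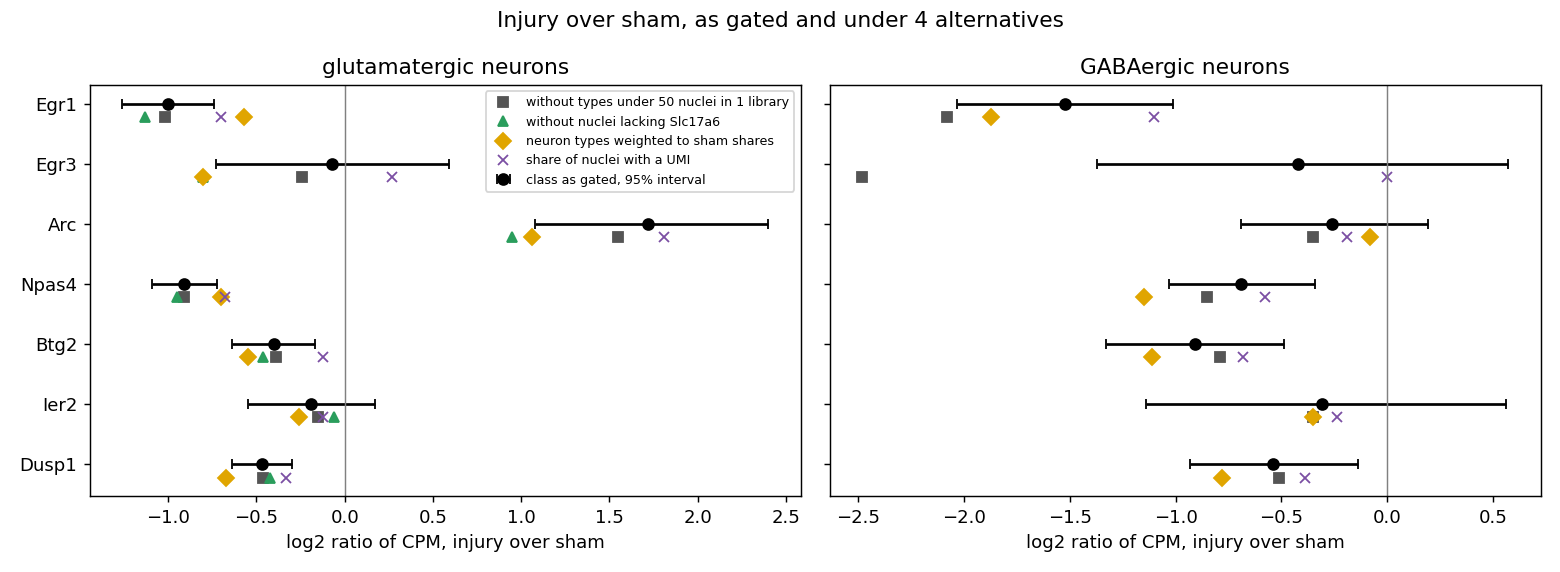
Log2 ratio of CPM, injury over sham (horizontal axis), for the 7 genes in glutamatergic and GABAergic neurons; black points are the classes as gated with their 95% interval and the other symbols are alternatives that change the nuclei or the measure. Arc in glutamatergic neurons was at 1.72 as gated and at 0.95 without nuclei lacking Slc17a6. Egr3 in GABAergic neurons was at -0.42 as gated. Without types under 50 nuclei in 1 library it was at -2.48, from 17 sham and 5 injury UMIs.

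Neuron types were then gated on single markers, marker pairs or trios inside each class, and 10 types had at least 50 nuclei in each library. The types are called by their markers, and among the 10 the Pde11a type rests on that gene alone. Nuclei with Chat, Slc5a7 and Chrnb4 are called medial habenula-like, since these genes mark its cholinergic neurons. Most gated neurons, 69.6% and 67.5% of glutamatergic and 73.9% and 70.4% of GABAergic nuclei, passed for no type. Among the 10 types, Egr1 was lower in the injury library in 9, Npas4 in 8, Btg2 in 8 and Dusp1 in 7. Egr3 was lower in 4, higher in 1 and at 0 UMIs in both libraries in 5. Arc was lower in 4 and higher in 6, and Ier2 lower in 5, higher in 3 and at 0 in 2. Most of these differences were within counting error, and 7 to 9 of the 9 pairs of neighbours in the order of levels of each gene and library were not apart.

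**Figure D3:**
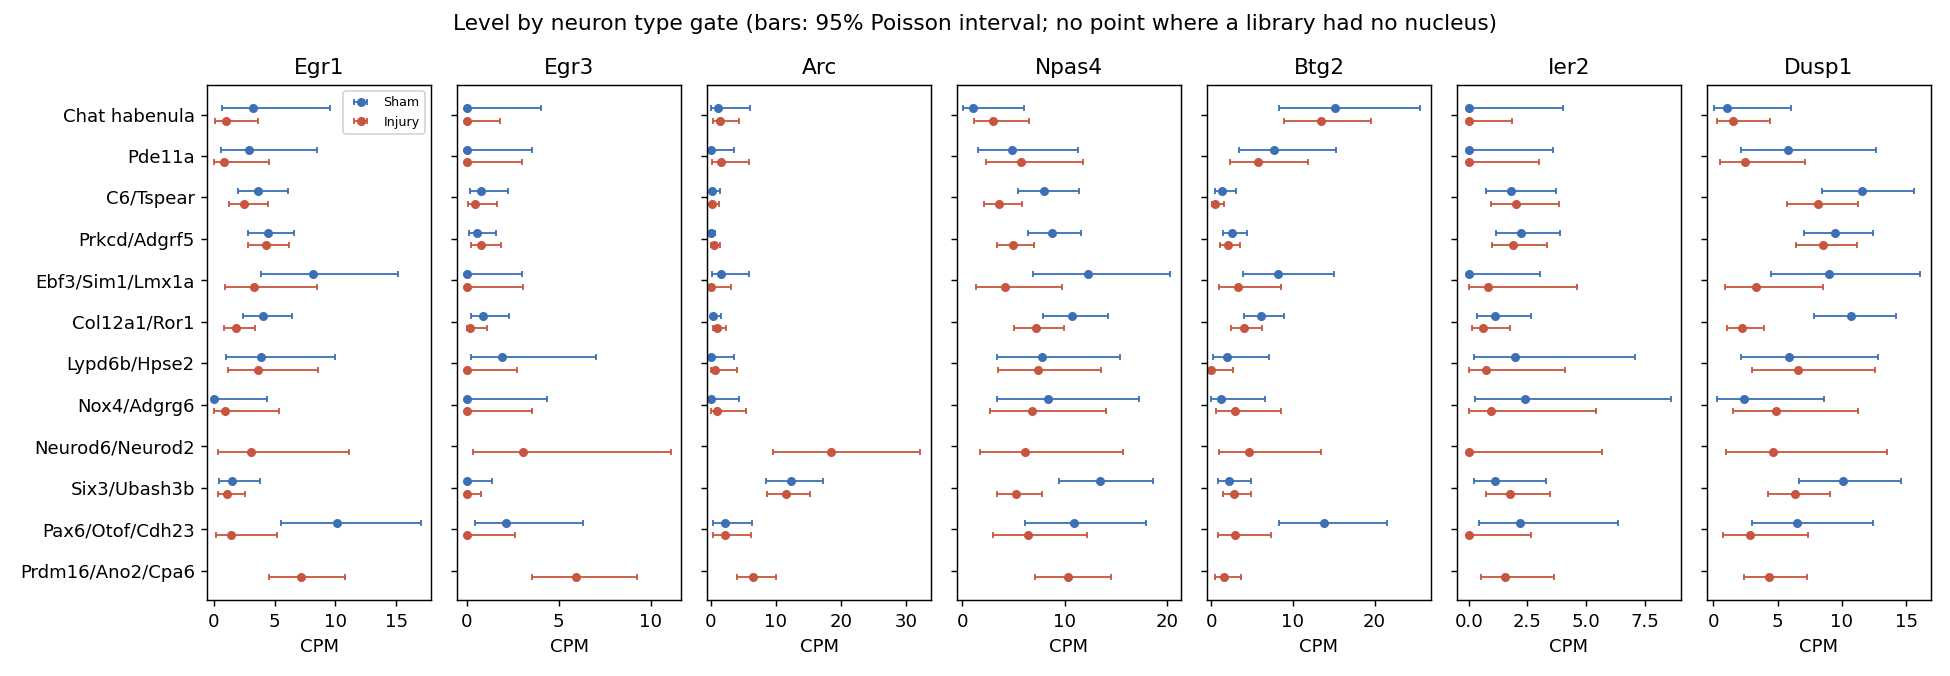
Level in CPM (horizontal axis) of each gene in 12 neuron type gates (rows), in the sham (blue) and injury (red) library, with 95% Poisson intervals; a row with a red point alone had no sham nucleus. Arc stood highest among the 10 compared types in Six3/Ubash3b nuclei, at 12.3 and 11.6 CPM, and Btg2 in Chat habenula nuclei, at 15.2 and 13.5 CPM.

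Six3/Ubash3b nuclei, 263 sham and 414 injury, held most of the Arc found in a GABAergic type. Six3 marks neurons of the thalamic reticular nucleus, but with 2 markers the type was not named. Arc was at 12.3 CPM from 33 UMIs and at 11.6 CPM from 53 UMIs, in 11.0% and 11.1% of nuclei. These made up 45.2% and 46.1% of all GABAergic Arc UMIs from 16.7% and 15% of GABAergic nuclei. The log2 ratio of these nuclei over the other GABAergic nuclei was 1.72 (1.01 to 2.42) in the sham and 1.95 (1.39 to 2.50) in the injury one, so both libraries showed it. The log2 ratio of injury over sham was -0.09 (-0.74 to 0.59).

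Npas4 in the same nuclei was at 13.4 CPM from 36 UMIs and at 5.25 CPM from 24 UMIs, a log2 ratio of -1.35 (-2.16 to -0.57). In this type the values of Npas4 were apart and those of Arc were not. Egr1 was at 1.49 and 1.09 CPM and Egr3 had 0 UMIs in both libraries. The log2 ratio of Egr1 over the other GABAergic nuclei was -2.34 (-4.25 to -0.93) for sham and -1.18 (-2.86 to 0.14) for injury nuclei, so it was apart in the sham library only.

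Pax6/Otof/Cdh23 nuclei, 142 and 133, had the highest sham level of Egr1 among the 10 types, 10.1 CPM from 14 UMIs, and 1.43 CPM from 2 UMIs in the injury library. The log2 ratio was -2.82 (-6.00 to -0.70). Btg2 was at 13.8 CPM from 19 UMIs and at 2.87 CPM from 4 UMIs, a log2 ratio of -2.26 (-4.28 to -0.67). Arc had 3 UMIs in each library, or 2.17 and 2.15 CPM.

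The medial habenula-like nuclei, 111 and 194, stood out by Btg2. Btg2 was at 15.2 CPM from 14 UMIs and at 13.5 CPM from 27 UMIs, a log2 ratio over the other glutamatergic nuclei of 1.69 (0.80 to 2.46) for sham and 1.98 (1.35 to 2.55) for injury nuclei. Dusp1 was low in both libraries, with 1 UMI and 3 UMIs or 1.09 and 1.5 CPM, and Ier2 and Egr3 had 0 UMIs. Npas4 had 1 sham and 6 injury UMIs, or 1.09 and 3.00 CPM, the lowest level of the 10 types in each. C6/Tspear nuclei, 253 and 259, had low Btg2, at 1.29 and 0.452 CPM, with log2 ratios over the other glutamatergic nuclei of -1.98 (-3.61 to -0.74) and -3.10 (-6.16 to -1.24). Dusp1 was at 11.6 and 8.13 CPM in them and not apart from the other glutamatergic nuclei in either library.

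Npas4 was lower in the injury library beyond counting error in 3 glutamatergic types. It was at 8.01 and 3.62 CPM in C6/Tspear nuclei, a log2 ratio of -1.15 (-2.12 to -0.23). In Prkcd/Adgrf5 nuclei, 349 and 378, it was at 8.71 and 4.92 CPM, a log2 ratio of -0.83 (-1.53 to -0.14). In Ebf3/Sim1/Lmx1a nuclei, 84 and 89, it was at 12.3 and 4.16 CPM from 15 and 5 UMIs, a log2 ratio of -1.56 (-3.38 to -0.03). The values of other genes in these types varied, and differences between genes were not tested. In Prkcd/Adgrf5 nuclei Egr1 was at 4.45 and 4.28 CPM, a log2 ratio of -0.05 (-0.90 to 0.80). In Col12a1/Ror1 nuclei, 359 and 367, Dusp1 was at 10.7 CPM from 47 UMIs and at 2.20 CPM from 11 UMIs, a log2 ratio of -2.28 (-3.38 to -1.31), while Npas4 was at 10.7 and 7.19 CPM, with an interval of -1.24 to 0.09. Of the 47 sham Dusp1 UMIs 12 came from 1 nucleus. The shares of Col12a1/Ror1 nuclei with a Dusp1 UMI were 6.96% (4.56 to 10.1) and 2.72% (1.31 to 4.95), a smaller difference than that of the levels.

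Some gates held nuclei of the injury library alone. Prdm16/Ano2/Cpa6 nuclei were 251 of 2751 injury GABAergic nuclei and 0 of 1576 sham nuclei, which allows a sham share of up to 0.190%. They held 19 of the 24 injury GABAergic Egr3 UMIs, at 5.93 CPM, with a log2 ratio over the other injury GABAergic nuclei of 4.71 (3.24 to 6.48). Egr1 was at 7.18 CPM, Npas4 at 10.3 CPM and Arc at 6.55 CPM in them. Without types under 50 nuclei in 1 library, the log2 ratio of injury over sham in GABAergic neurons was -2.08 for Egr1 and -2.48 for Egr3. The Egr3 value rests on 17 sham and 5 injury UMIs. Neurod6/Neurod2 nuclei were 42 of 5950 injury nuclei and 0 of 5520 sham nuclei, which allows up to 0.0543%. Arc was at 18.5 CPM in them, from 12 UMIs in 26.2% of the nuclei. Whether these nuclei belong to the library, to tissue beside the thalamus or to a type of the injured thalamus cannot be told apart.

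Nuclei with several of the genes at a time were rare and rarer in the injury library. Most of the genes were also found singly in a smaller share of injury nuclei. The joint number expected from the single genes was not computed. In glutamatergic neurons 53 sham nuclei (0.960%, interval 0.720 to 1.25) and 20 injury nuclei (0.336%, 0.205 to 0.519) held UMIs of 3 or more of the 7 genes. In GABAergic neurons they were 13 (0.825%, 0.440 to 1.41) and 6 (0.218%, 0.0801 to 0.474). After thinning to 4000 UMIs, 8 of 5343 sham and 0 of 5774 injury glutamatergic nuclei held 3 or more. Before thinning, glutamatergic nuclei with 3 or more had medians of 13778 sham and 22521 injury UMIs. Those with 0 of the genes had medians of 10140 and 10836 UMIs. Among pairs of genes in thinned sham glutamatergic nuclei, the share with the second gene was apart between nuclei with and without the first in 7 of 21 pairs. Dusp1 was found in 9.76% of nuclei with Npas4 (6.06 to 14.7) and in 3.46% of those without it (2.98 to 4.00). Btg2 was found in 9% of nuclei with Egr1 (4.20 to 16.4) and in 1.68% of those without it (1.35 to 2.06). Egr1 and Npas4 were not apart in this way, since Npas4 was found in 4.00% of nuclei with Egr1 (1.10 to 9.93) and 3.83% of those without it (3.33 to 4.39). In thinned injury glutamatergic nuclei 1 of 21 pairs, Egr1 with Egr3, was apart, from 2 nuclei with both. There Dusp1 was found in 2.61% of nuclei with Npas4 (0.541 to 7.43) and 2.53% of those without it (2.13 to 2.97). Btg2 was found in 0 of 52 injury nuclei with Egr1 and in 1.56% of those without it. The share with the second gene was higher beside the first in 17 of 21 sham and 7 of 21 injury pairs. Fewer injury than sham nuclei held Egr1 (52 against 100) or Npas4 (115 against 205), which widens the intervals and leaves many pairs with 0 joint nuclei. The counts of pairs are therefore not comparable between the libraries. The same count over pairs of other genes was not made. In GABAergic nuclei 1 of 21 pairs was apart for sham and 0 for injury nuclei, at fewer nuclei than in the glutamatergic class.

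**Figure D4:**
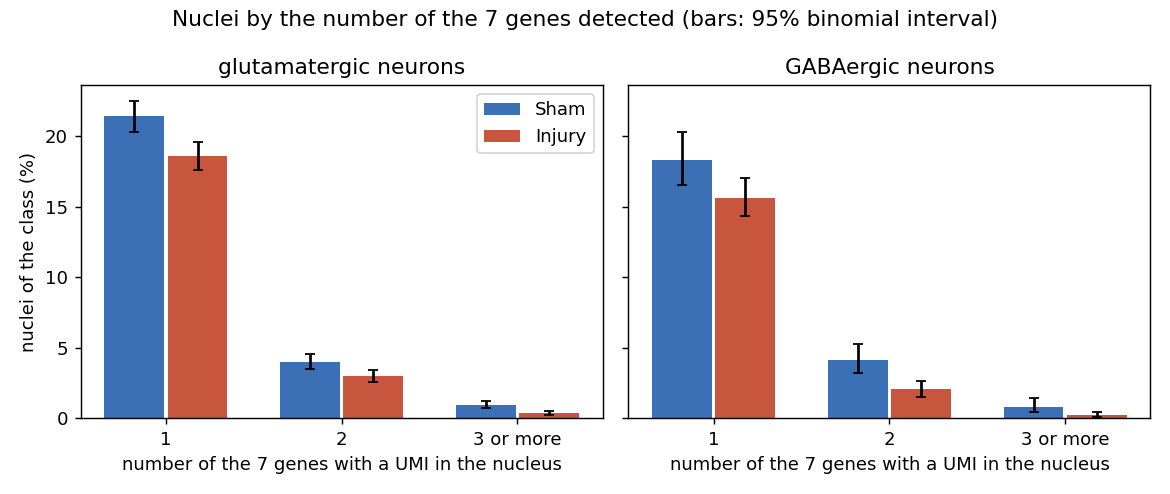
Share of nuclei (vertical axis, %) by the number of the 7 genes with a UMI in the nucleus, sham in blue and injury in red, with 95% binomial intervals. In glutamatergic neurons 0.960% of sham and 0.336% of injury nuclei held 3 or more.

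Other activity genes were read from lists made with earlier results of these data known. Of 38 other primary response genes, 31 had at least 50 UMIs in glutamatergic neurons, 7 of them lower and 0 higher by at least 1.5-fold, against 2.31% and 4.78% of all genes tested, with a median log2 ratio of -0.16. Fos, a partner in the AP-1 factor, was at 5.44 and 1.45 CPM, a log2 ratio of -1.91 (-2.23 to -1.60), and its relative Fosb at 0.785 and 0.143 CPM, -2.45 (-3.54 to -1.5). Gadd45b, a DNA damage and demethylation gene, had a log2 ratio of -1.07, the AP-1 gene Fosl2 -0.90 and the survival gene Ier3 -0.96. In GABAergic neurons 23 of the 38 had enough UMIs, 4 of them lower and 0 higher, against 3.07% and 5.53% of all genes tested, with a median of -0.29. Fos was at 6.20 and 1.03 CPM there, a log2 ratio of -2.59 (-3.28 to -1.94), the nuclear receptor Nr4a3 at 6.73 and 2.06 CPM, -1.70 (-2.23 to -1.20), and Ier3 had a log2 ratio of -1.07.

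Of 13 delayed response and effector genes, 12 had enough UMIs in each class. In glutamatergic neurons 0 were lower or higher by 1.5-fold, with a median of -0.12. In GABAergic neurons 4 were lower and 0 higher, against the same 3.07% and 5.53%, with a median of -0.08. The growth factor Bdnf was at 11.5 and 5.04 CPM in GABAergic neurons, a log2 ratio of -1.19 (-1.54 to -0.84), and the secreted Vgf at 20.7 and 10.8 CPM, -0.93 (-1.18 to -0.69). All 21 genes upstream of the response, kinases, channels and factors such as Creb1 and Srf, had enough UMIs and 0 passed 1.5-fold in either class, with medians of -0.02 and 0.03. Heat shock genes respond to handling of tissue as well as to stress. Of 8 with enough UMIs, 0 in glutamatergic and 1 in GABAergic neurons were lower by 1.5-fold and 0 were higher, with medians of -0.20 and -0.26. By interval, 8 lay below 0 in glutamatergic and 6 in GABAergic neurons, against 23.8% and 18.7% of all genes tested. In glutamatergic neurons 14 of 31 primary response genes lay below and 4 above 0, 6 of 12 delayed response genes below and 4 above, and 6 of 21 upstream genes below and 8 above, where 22% of all genes tested lay above. In GABAergic neurons 8 of 23 primary response genes lay below and 0 above 0, 5 and 0 of 12 delayed response genes, and 2 and 4 of 21 upstream genes, where 15.4% of all genes tested lay above. The part of the heat shock genes in the lower activity genes was not tested.

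**Figure D5:**
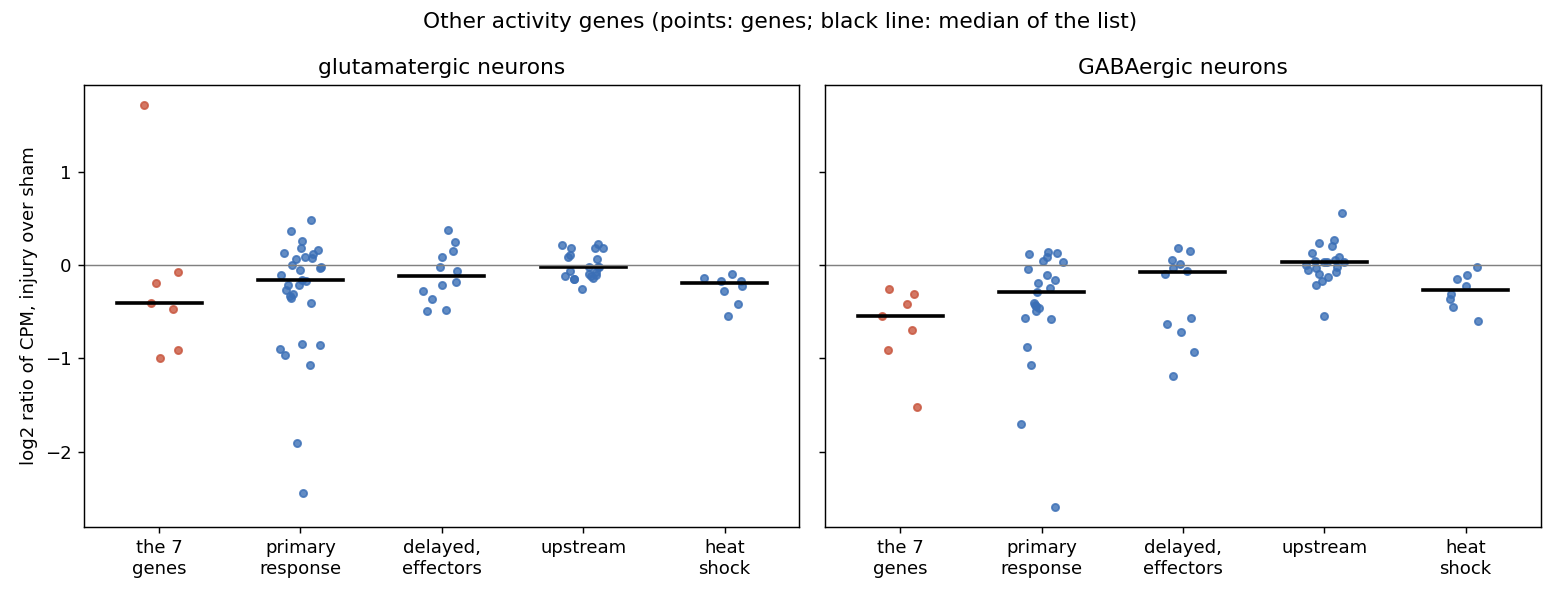
Log2 ratio of CPM, injury over sham (vertical axis), of the 7 genes and of the genes of 4 lists with at least 50 UMIs over both libraries; points are genes and the black line is the median. The primary response medians were -0.16 in glutamatergic and -0.29 in GABAergic neurons, and the upstream medians -0.02 and 0.03.

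Across the 22 combinations of neuron type and library with at least 50 nuclei, the genes most like the mean profile of the 7, by Pearson's r over 13242 genes with at least 500 UMIs, were Siah2 (0.80), Atp1b1 (0.76), Gapdh (0.76), Rnft1 (0.75) and Ube2b (0.73). The points share 2 libraries and differ in depth, so these values describe and are not tested. Among the 7 genes the highest values were Egr1 with Egr3 at 0.60 and Egr3 with Ier2 at 0.59, and the lowest was Btg2 with Ier2 at -0.54. Arc was within 0.23 of 0 with each of the other genes, as a description of these few points.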

How the data were processed

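The 2 deposited tables hold raw UMI counts per gene and nucleus. The authors pooled nuclei of 4 mice per group, prepared 10x 3′ libraries and, per the submitters' processing notes, used Cell Ranger 6.0.2 and Seurat 4.0 with GRCm38. The annotation release, strand and intron settings are not given in the sources used here. All values were whole. Symbols and gene positions come from GENCODE M21 on GRCm38. The sham table held 16390 nuclei with 137850696 UMIs and that of the injury group 21828 nuclei with 180106314 UMIs. Nuclei over 2% mitochondrial UMIs, over 7500 genes or under 200 genes were left out, as in the study.

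The members, lists and neuron type markers were chosen with earlier results of these data known. Neurons needed at least 2 UMIs of their transmitter markers and at least 3 times those of the other class, and a type at least 3 UMIs of its markers, from 2 or more of them where there were several. Oligodendrocyte markers had to stay under 0.2% of UMIs. Doublets were kept. UMIs were summed per class and library and scaled to CPM. With 1 library per group no test was made, and no p-value is given. Intervals are exact Poisson for levels, exact Clopper-Pearson for shares and exact conditional binomial for ratios. A gene was called at a 1.5-fold difference with at least 50 UMIs over both libraries, and a count of 0 allows 3 counts. The ratio and interval code was tested on simulated data. The genes named are the 7 members, the 5 genes of the lists with the largest log2 ratio in each class and the 5 most similar genes. Neurod6, Neurod2, Prox1, Tcf7l2, Egr2 and Egr4 fall outside this rule and were chosen after their values were seen. Creb1 and Srf stand as examples of a list. Alternatives covered gates, filters, doublets (Scrublet in scanpy 1.11.5), scaling (TMM in edgeR 4.0.16, median ratio), depth and type weights. Analysis used Python 3.11.15, numpy 2.4.6 and scipy 1.17.1.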

Additional observations from a re-analysis of the deposited data

Results flagged for a closer look

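Arc had opposite directions in the 2 neuron classes. Its log2 ratio of injury over sham was 1.72 in glutamatergic and -0.26 in GABAergic neurons, and each class was 1 pool per group, so the difference between the classes was not tested. The GABAergic interval spanned 0. Nuclei without Slc17a6 held 45 of the 99 injury glutamatergic Arc UMIs, and the glutamatergic log2 ratio was 0.95 without them.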

How the results depend on the processing

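Among the recomputed log2 ratios of the 7 genes, 161 stayed within their counting interval, 13 moved beyond it and 0 reversed a called direction. Counting each nucleus at most 1 time gave -0.70 for Egr1, -0.68 for Npas4 and -0.12 for Btg2 in glutamatergic neurons. These shares were taken at full depth, which differed between the libraries. Weighting neuron types to their sham shares gave -0.57 for Egr1, -0.80 for Egr3, 1.06 for Arc, -0.70 for Npas4 and -0.67 for Dusp1 in glutamatergic neurons and -1.15 for Npas4 in GABAergic neurons. It uses the minority of nuclei with a type. The next alternatives were chosen after seeing the data. Without nuclei lacking Slc17a6, glutamatergic Egr3 was -0.80 and Arc 0.95. Without types under 50 nuclei in 1 library, GABAergic Egr1 was -2.08 and Egr3 -2.48, the latter from 17 sham and 5 injury UMIs. Without nuclei of 3 or more UMIs of a gene, its ratios stayed within their intervals. At a fold of 2, which fewer genes can pass, 3 primary response genes were lower in glutamatergic neurons, against 0.241% of all genes tested, and 3 primary response genes, 1 delayed response gene and 0 heat shock genes in GABAergic neurons, against 0.388%. With no filter on low UMIs and a prior of 0.5, which adds genes, 9 primary response genes and 1 heat shock gene were lower and 1 primary response gene and 1 delayed response gene higher in glutamatergic neurons, and 9 primary response and 3 heat shock genes were lower in GABAergic neurons. Under that setting 9.81% of all genes with a UMI were lower and 14.2% higher in glutamatergic neurons, and 12.8% and 18.5% in GABAergic neurons. Other gates, doublet removal, thinning and scaling changed no ratio beyond its interval, and scaling shifted all genes by at most 0.02. Calls near 1.5-fold could still change with the gate. In GABAergic neurons Npas4 was at -0.54, short of 1.5-fold, with the gate at 1 UMI. Dusp1 was at -0.75 there, past 1.5-fold, with the gate at 3 UMIs. No paired analysis was possible because there was 1 library per group, and no replicate could be left out. Depth limits Ier2 and most types, where levels rest on few UMIs.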

Other observations

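The Arc and Npas4 counts of oligodendrocytes and neurons are given side by side as a description. The sham library had 18 Arc UMIs and 1 Npas4 UMI in oligodendrocytes, 26 and 637 in glutamatergic neurons and 73 and 129 in GABAergic neurons. In the injury library the counts were 24 and 9, 99 and 394, and 115 and 151. The log2 ratio of Arc in oligodendrocytes over glutamatergic neurons was 4.67 (3.72 to 5.59) in the sham library and 2.08 (1.38 to 2.74) in the other.

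The other genes of the Egr family were too scarce to be called. In glutamatergic neurons Egr2 gave 15 sham and 23 injury UMIs, a log2 ratio of 0.40 (-0.60 to 1.45), and Egr4 gave 20 and 7 UMIs, with its log2 ratio at -1.73 (-3.21 to -0.43). Among GABAergic neurons Egr2 gave 3 and 6 UMIs and Egr4 gave 6 and 9.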
